A study of Mus musculus with 22 samples.

Results

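The 5 long RNAs with no known main protein product, Malat1, Mir124a-1hg, Meg3, Miat and Snhg11, were followed over the 4 groups of a ribosome pull-down experiment in mouse hindbrain. They are 5 of the 12596 genes in the deposited table, and all 5 were in it. They were selected on their depletion from ribosome-bound RNA, that is, on low values in the immunoprecipitated libraries relative to the RNA before immunoprecipitation in these same animals. The difference between those 2 kinds of library is therefore given for them as a description, with no test.

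The mice were on a C57Bl/6 background and came from a cross of a Th-cre line with a Slc6a2-eGFP/Rpl10a line, so treated and control animals share both transgenes. Th-cre expresses Cre recombinase under the control of the tyrosine hydroxylase gene, and the other transgene places an eGFP tag on the ribosomal protein Rpl10a in cells that use Slc6a2, the noradrenaline transporter gene. Of 11 animals, 5 were infused with hTyr, human tyrosinase, and 6 with EYFP, a fluorescent protein that serves as control. Age, sex, dose and time after infusion are not given in the sources used here. Each animal gave an immunoprecipitated library (IP), labelled noradrenergic, and a library of the RNA before immunoprecipitation (input), labelled total hindbrain, which makes 22 libraries named IP_501, Pre_501 and so on in the labels, with the groups EYFP input (n = 6), hTyr input (n = 5), EYFP IP (n = 6) and hTyr IP (n = 5). Values are taken as log2 CPM, read counts scaled for the size of the library and put on a log2 scale. Back on the linear scale they summed to 972556 to 1040933 per library, so the scaling was not to the total of these reads alone. The libraries held 12654489 to 25100142 reads in the table.

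In general, long noncoding RNAs can act in the nucleus as transcripts. Malat1 is concentrated in nuclear speckles, bodies rich in splicing factors, Miat (also called Gomafu) forms its own nuclear domains in neurons, and Meg3 is a maternally expressed RNA of the imprinted Dlk1-Dio3 cluster that is found with chromatin. Mir124a-1hg is a host transcript of miR-124, the abundant neuronal microRNA, which is cut from it in the nucleus, and Snhg11 carries small nucleolar RNAs in its introns. A ribosome pull-down enriches RNA that sits on tagged ribosomes, mostly in the cytoplasm. The place of these RNAs in the cell was not measured here, so "nuclear-retained" is background for the 5 rather than a result.

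The annotation bears on that name. In the GENCODE M21 annotation of GRCm38 (the same assembly as mm10), Malat1 lies on the minus strand at chr19:5795690-5802672 as a single exon of 6983 bases. Mir124a-1hg lies on the plus strand at chr14:64587331-64593961 and contains Mir124a-1. Meg3 spans 30726 bases on the plus strand at chr12:109541001-109571726 and contains Mir770. Miat lies on the minus strand at chr5:112213228-112229395. These 4 are annotated as lincRNA, long intergenic noncoding RNA. Snhg11, on the plus strand at chr2:158375638-158386145 with 2 snoRNA genes inside it, is annotated as protein_coding in GENCODE M21 and as a noncoding RNA in RefSeq, so its inclusion among noncoding RNAs depends on the annotation. Malat1, Meg3 and Miat are each overlapped by 1 lincRNA or unclassified gene on the other strand (Gm37376, Gm26906 and Gm26953). None of those 3 is in the table, and whether counting used strand is not given in the sources used here, so reads of the pairs cannot be told apart.

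Sequences are shown where they carry what is known of how these RNAs are held or built. The end of Malat1 lacks a normal poly(A) tail, and its 2 U-rich motifs and an A-rich tract fold into a triple helix that protects the RNA. The window below is read along the transcript strand from GENCODE M21 (chr19:5795960-5796087, minus strand, T standing for U), with the motifs TTTTTCTTTT and TTTTGCTTTTT and a run of 12 A in capitals.

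Malat1: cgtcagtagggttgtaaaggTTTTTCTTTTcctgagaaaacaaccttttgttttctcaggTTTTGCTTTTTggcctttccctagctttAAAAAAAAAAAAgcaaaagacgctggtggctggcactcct

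Among 24356 GENCODE transcripts of 3000 bases or more, 1 (0.0041%) held these motifs in that order with gaps of up to 70 bases, and it was Malat1. The search used the exact letters of Malat1, so Malat1 had to match and variants of the element were not counted. The count therefore does not show that such an element is particular to Malat1. Miat is known for repeats that resemble the branch-point sequence of introns and bind splicing factors. The window of 160 bases with the most copies of ACTAAC lies in exon 7 of 7 (chr5:112217311-112217470, minus strand), and its 4 copies are in capitals.

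Miat: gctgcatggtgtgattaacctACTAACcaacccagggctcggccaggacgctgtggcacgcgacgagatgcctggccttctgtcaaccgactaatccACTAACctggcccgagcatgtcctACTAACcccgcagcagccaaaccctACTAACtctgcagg

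The longest Miat transcript, of 9163 bases, held 11 copies of ACTAAC on its own strand, or 1.2 per kb, against 0.113 per kb over the 24356 transcripts. Of those transcripts 9 (0.037%) had a density at or above that of Miat, the Miat transcript itself among them. Since the repeat was searched because it is known in Miat, this count is no independent result. Malat1 and Mir124a-1hg held 0 copies, and Meg3 and Snhg11 held 1 each in transcripts of 14548 and 5864 bases. A match is a description of letters and says nothing of binding.

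The RefSeq promoters of Meg3 and Snhg11 (GRCm38.p6, from 250 bases before to 50 after the start) are shown because these RNAs had the most similar levels across animals, as given further below. TGACGTCA, the consensus cAMP response element, is known in the Meg3 promoter, and a search for it (the motif reads the same on both strands) found it 57 bases before the start of Meg3, in capitals, and not in the Snhg11 window. It is in 588 of 32851 RefSeq promoters of this length (1.79%). The windows lie at chr12:109540746-109541045 and chr2:158375463-158375762, both on the plus strand.

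Meg3: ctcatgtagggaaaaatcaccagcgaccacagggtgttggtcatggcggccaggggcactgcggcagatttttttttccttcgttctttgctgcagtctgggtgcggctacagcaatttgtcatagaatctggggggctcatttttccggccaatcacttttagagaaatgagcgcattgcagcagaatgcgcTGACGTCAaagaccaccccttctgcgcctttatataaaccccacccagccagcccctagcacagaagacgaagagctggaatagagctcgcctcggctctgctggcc
Snhg11: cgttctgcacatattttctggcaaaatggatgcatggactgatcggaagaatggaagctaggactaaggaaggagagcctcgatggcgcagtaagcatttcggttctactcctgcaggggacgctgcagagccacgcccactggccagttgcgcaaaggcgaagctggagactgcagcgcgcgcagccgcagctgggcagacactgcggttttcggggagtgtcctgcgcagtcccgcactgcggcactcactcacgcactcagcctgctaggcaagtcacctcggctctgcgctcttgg

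The immunoprecipitation and the libraries were checked on markers. Th, Dbh and Slc6a2, genes of noradrenaline synthesis and reuptake, were higher in IP than in input in 11 of 11 animals, with log2 differences of 1.45 to 3.58 for Th and 3.19 to 5.27 for Dbh. Of 15 noradrenergic markers 14 were in the table, and their mean level lay between 3.43 and 3.79 log2 CPM in input and between 5.28 and 6.92 in IP. Glial RNA stayed in the pull-down. All 25 markers of oligodendrocytes, astrocytes and microglia were detected in every IP library, with 48 reads or more each, and their mean level was 6.83 to 7.28 log2 CPM in EYFP IP and 6.87 to 7.38 in hTyr IP, against 6.83 to 7.24 in input. So an IP library is enriched for noradrenergic RNA but not pure. In bulk RNA like this, fewer cells of a type and less RNA per cell cannot be told apart, nor, between IP and input, a different mix of cells and less binding to ribosomes.

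Before immunoprecipitation, all 5 RNAs were abundant. Meg3 had the highest level, with 9.69, 10, 9.81, 9.99 and 8.93 log2 CPM in hTyr input (Pre_501, Pre_502, Pre_508, Pre_509 and Pre_510) and a lowest, median and highest value of 9.72, 9.95 and 10.09 in EYFP input. Snhg11 followed with 9.10, 9.25, 9.53, 9.55 and 8.43 log2 CPM in hTyr input and 8.93, 9.41 and 9.59 (lowest, median, highest) in EYFP input. In both RNAs the hTyr library Pre_510 lay below every other input library, and apart from it the groups overlapped.

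Malat1, the speckle RNA, had 8.40, 8.49, 8.33, 8.90 and 8.08 log2 CPM in hTyr input and 8.01, 8.63 and 8.83 (lowest, median, highest) in EYFP input. For Miat the hTyr input values were 7.21, 7.30, 7.36, 7.42 and 6.51, and the EYFP input values were 6.95, 7.38 and 7.49. Mir124a-1hg had 6.93, 7.0, 7.11, 7.14 and 6.25 in hTyr input and 6.66, 6.98 and 7.16 in EYFP input. Pre_510 was the lowest hTyr input library for all 5 RNAs and the lowest of the 11 input libraries for every one but Malat1, for which the EYFP library Pre_506 was lower.

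Levels between genes are compared per length. In EYFP input, log2 CPM per kb of exon averaged 6.24 ± 0.23 for Snhg11, 5.74 ± 0.15 for Meg3, 5.69 ± 0.36 for Malat1, 4.67 ± 0.19 for Mir124a-1hg and 4.06 ± 0.23 for Miat (SD, n = 6). Meg3 and Malat1 did not differ beyond their spread. In hTyr IP the order was Snhg11 with 4.83 ± 0.55, Meg3 with 4.16 ± 0.46, Malat1 with 3.77 ± 0.30, Mir124a-1hg with 3.07 ± 0.48 and Miat with 2.47 ± 0.32 (SD, n = 5), and Meg3 and Malat1 again did not differ beyond their spread. The gaps between other neighbours exceeded the larger SD in both groups. Exon length covers every annotated exon of a gene, so a gene whose long isoforms are rare gets too low a value.

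In the IP libraries the 5 RNAs were lower. Malat1 had 6.85, 6.74, 6.73, 6.11 and 6.43 log2 CPM in hTyr IP (IP_501, IP_502, IP_508, IP_509 and IP_510) and 6.32, 7.10 and 8.20 (lowest, median, highest) in EYFP IP. Every hTyr IP library lay below every hTyr input library, while the EYFP library IP_505, at 8.20, lay within the input range. Mir124a-1hg had 5.45, 5.39, 6.01, 4.68 and 5.15 in hTyr IP and 5.23, 5.81 and 6.68 in EYFP IP, again with IP_505 the highest.

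Meg3 had 8.37, 8.07, 9.06, 7.83 and 8.37 log2 CPM in hTyr IP and 8.23, 8.98 and 9.66 in EYFP IP. Snhg11 had 7.97, 7.62, 8.79, 7.34 and 7.87 in hTyr IP and 7.73, 8.36 and 9.04 in EYFP IP. Miat had 5.73, 5.43, 6.20, 5.43 and 5.64 in hTyr IP and 5.65, 6.24 and 7.12 in EYFP IP. For each of the 5 RNAs IP_505 was the highest of all IP libraries and the hTyr library IP_509 was the lowest. The lowest count behind any of these values was 373 reads, for Mir124a-1hg in IP_509.

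**Figure D1:**
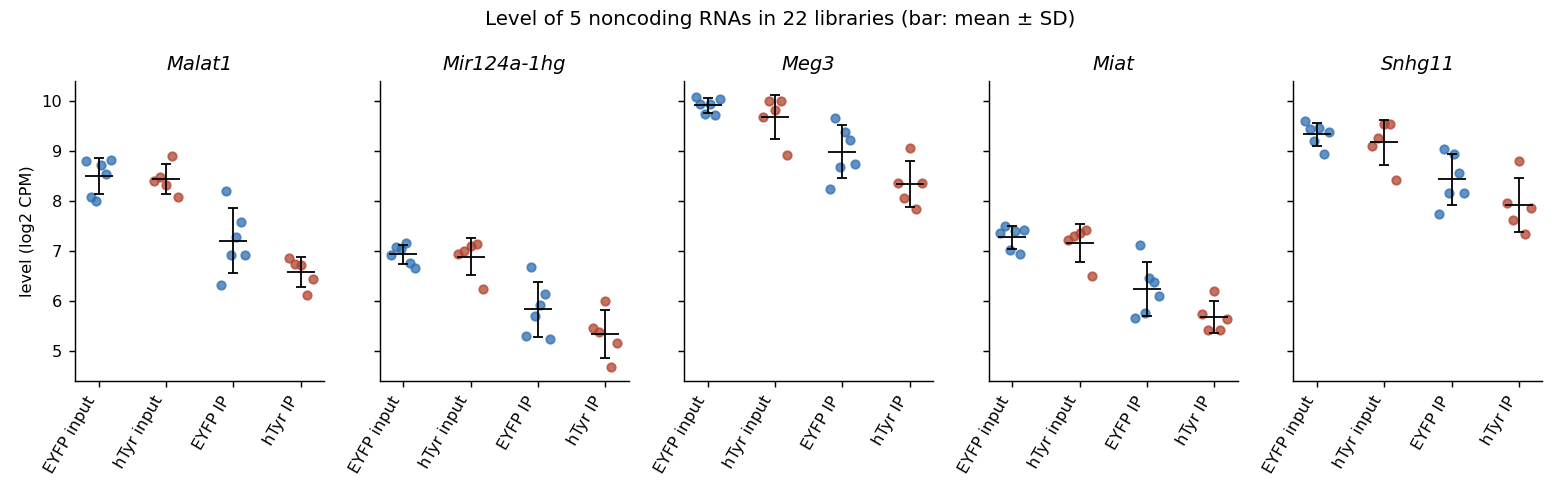
Level of each RNA in log2 CPM (vertical axis) in every library of the 4 groups (horizontal axis), with points for libraries, blue for EYFP and red for hTyr, and bars for mean ± SD. Meg3 and Snhg11 sit highest, each RNA is lower in IP than in input, and the single high Malat1 point in EYFP IP is IP_505 at 8.20.

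Taken within an animal, IP minus input measures how far each RNA fell short in the pull-down. Malat1 differed by -1.55, -1.75, -1.60, -2.78 and -1.65 on the log2 scale in the hTyr animals of IP_501, IP_502, IP_508, IP_509 and IP_510, and by -2.48, -1.26 and 0.11 (lowest, median, highest) in the EYFP animals. Its mean over the 5 hTyr animals was -1.86 ± 0.52 (SD) and over the 6 EYFP animals -1.29 ± 0.89, which correspond to 27.5% and 40.9% of the input level. The widest contrast between animals is also in Malat1, which stood at 14.5% of its input level in the animal of IP_509 and at 108% in that of IP_505.

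For the host of miR-124, Mir124a-1hg, the difference averaged -1.55 ± 0.56 in hTyr and -1.10 ± 0.49 in EYFP. Miat differed by -1.48 ± 0.47 in hTyr and -1.03 ± 0.50 in EYFP, Meg3 by -1.35 ± 0.70 and -0.92 ± 0.59, and Snhg11 by -1.26 ± 0.67 and -0.90 ± 0.59 (log2, SD, n = 5 and 6). The 5 thus fell in the same order, Malat1, Mir124a-1hg, Miat, Meg3 and Snhg11, in both treatments, with gaps between neighbours smaller than the SD over animals. IP was below input in 11 of 11 animals for 4 of the RNAs and in 10 of 11 for Malat1, the exception being the animal of IP_505.

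Ranked from the lowest IP minus input among 12596 genes, Malat1 stood at place 11 in EYFP and 3 in hTyr, Mir124a-1hg at 33 and 6, Miat at 53 and 11, Meg3 at 99 and 23, and Snhg11 at 114 and 30. Background for these places is wide, since 28.1% of all genes passed the threshold (adjusted p of 0.05, limma) as lower in IP in EYFP and 27.0% in hTyr. IP and input libraries did not overlap for 1 of the 5, Meg3, in EYFP, where 13.4% of all genes were apart in the lower direction. In hTyr they did not overlap for 3, Malat1, Mir124a-1hg and Miat, where 16.8% of all genes were apart in that direction. These counts rest on the contrast that chose the RNAs and nothing is read from them.

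The spread between animals was wider than that between the 5 RNAs. The median over the 5 RNAs was -0.38 in the EYFP animal of IP_505 and -0.57 in that of IP_511, and it was -1.86 in the EYFP animal of IP_504 and -2.20 in the hTyr animal of IP_509. The medians lay between -1.86 and -0.38 in EYFP and between -2.20 and -0.87 in hTyr, so the treatments overlapped in part. The EYFP animals of IP_505 and IP_511 lay above every hTyr animal, and the hTyr animal of IP_509 lay below every EYFP animal. The difference of noradrenergic markers between IP and input was 2.11 for IP_505, 1.61 for IP_511, 2.56 for IP_504 and 2.25 for IP_509, against 1.61 to 3.24 over all 11, and that of glial markers was -0.03 to 0.21 in all 11. The glial value averages lists that went different ways. Median IP minus input was 0.34 in EYFP and 0.47 in hTyr for astrocyte markers. It was -0.12 and -0.18 for oligodendrocyte markers, and 0.05 and -0.10 for microglia markers. The part of these mixes of cells in the spread of the 5 RNAs was not tested.

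**Figure D2:**
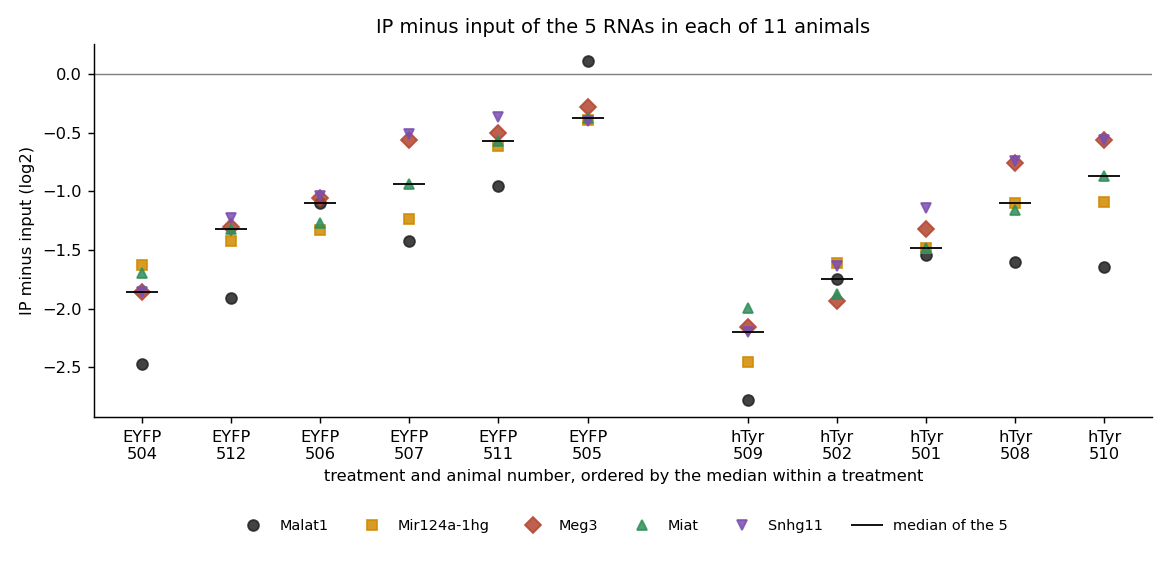
IP minus input on the log2 scale (vertical axis) for the 5 RNAs (symbols) in each animal (horizontal axis, by treatment and animal number), with a bar at the median of the 5. The medians run from -2.20 in the hTyr animal of IP_509 to -0.38 in the EYFP animal of IP_505, where Malat1 alone is above 0. Within an animal the RNAs spread less, the widest spread being from -1.65 for Malat1 to -0.56 for Meg3 and Snhg11 in the hTyr animal of IP_510.

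The comparison of hTyr with EYFP asks how tyrosinase affected these RNAs. It was not the contrast that chose them, though it shares its libraries with the choice. In IP, all 5 had lower means in hTyr than in EYFP animals, by -0.63 ± 0.24 for Malat1, -0.65 ± 0.23 for Meg3, -0.56 ± 0.21 for Miat, -0.52 ± 0.24 for Snhg11 and -0.50 ± 0.24 for Mir124a-1hg (log2 change ± SE, limma, n = 5 and 6). Over all genes tested, 0 of the 5 passed, with adjusted p of 0.771 for Malat1, 0.754 for Meg3, 0.771 for Miat and 0.803 for Snhg11 and Mir124a-1hg (limma, Benjamini-Hochberg). Their unadjusted p were 0.0185, 0.0125, 0.0177, 0.0496 and 0.0564 in the order Malat1, Meg3, Miat, Snhg11 and Mir124a-1hg, so 4 of 5 were under 0.05 before adjustment, as were 3.31% of all genes in the lower direction, and voom on the recovered reads gave 0 passing and 3 of 5. Since the 5 rise and fall together across animals, these are not 5 separate results. Of all genes, 7 (0.0556%) passed in IP, in either direction.

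The groups overlapped for every one of the 5 in IP. For Malat1 the hTyr libraries spanned 6.11 to 6.85 log2 CPM and the EYFP libraries 6.32 to 8.20, and for Meg3 they spanned 7.83 to 9.06 and 8.23 to 9.66. Without IP_505 the Malat1 difference was -0.43 and that of Mir124a-1hg -0.33, which is more than 1.5 times smaller for Mir124a-1hg, and without IP_504 the Malat1 difference was -0.81. With the noradrenergic marker score as a covariate the Meg3 difference was -0.48 and the Snhg11 difference -0.35, and 1 of 5 had an unadjusted p under 0.05. That score averaged 6.02 ± 0.56 log2 CPM over the 5 hTyr IP libraries and 5.71 ± 0.36 over the 6 EYFP IP libraries (SD).

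In input the differences between treatments were smaller, at -0.06 ± 0.16 for Malat1, -0.05 ± 0.14 for Mir124a-1hg, -0.11 ± 0.15 for Miat, -0.16 ± 0.17 for Snhg11 and -0.23 ± 0.16 for Meg3 (log2 change ± SE). None of the 5 passed (adjusted p of 0.990 for each, limma), and 0 of 5 had an unadjusted p under 0.05 with limma or with voom, where 2.04% of all genes did in the lower direction and 1 gene (0.00794%) passed after adjustment. Without Pre_510, 4 of the 5 differences turned positive, at 0.031 for Malat1, 0.11 for Mir124a-1hg, 0.050 for Miat and 0.026 for Snhg11, and that of Meg3 became -0.04. That Malat1 differed by -0.63 in IP and by -0.06 in input is a contrast of contrasts that contains the IP and input difference used for the choice, so it is given without a test. For Malat1 the mean of IP minus input in hTyr less that in EYFP was -0.57, while the animals of both treatments overlapped.

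**Figure D3:**
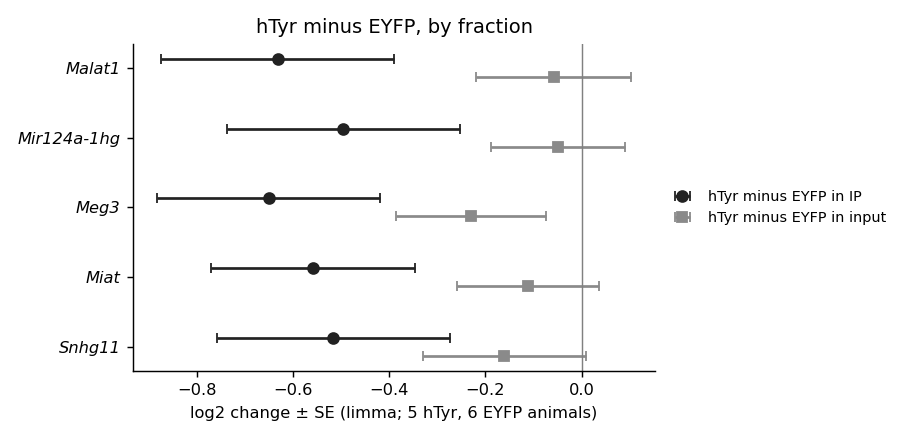
The log2 change of hTyr minus EYFP with its SE (horizontal axis, limma) for each RNA (vertical axis), in IP (black circles) and in input (grey squares), from 5 hTyr and 6 EYFP animals. All 5 IP values lie between -0.65 and -0.50 and all 5 input values between -0.23 and -0.05.

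Across animals of the same treatment, the 5 RNAs rose and fell together in IP. Each library's deviation from its treatment mean was correlated between RNAs over 11 animals, with p from an exact two-sided permutation within treatments (86400 orders) and Benjamini-Hochberg adjustment over 40 relations. All 10 pairs passed in IP, with Pearson's r between 0.747 and 0.986, Spearman's rho between 0.718 and 0.982 and adjusted p of 0.000462 to 0.0179 for r (exact permutation), and 8 of the 10 passed by rho. Meg3 and Snhg11 were closest, with r of 0.986, rho of 0.982 and an unadjusted exact permutation p of 3.47e-05. Meg3 and Miat had r of 0.940, and Miat and Snhg11 had r of 0.903, with 1.16e-05, the smallest p these orders can give. Malat1 had r of 0.747 to 0.872 with the others, a range that holds the r of 0.843 between Mir124a-1hg and Miat, and differences between correlations were not tested. Leaving out the 2 animals farthest from the median of the RNA on the first axis (IP_505 and IP_509 for 9 of the pairs, IP_505 and IP_507 for the other) left r between 0.618 and 0.984. The share of all gene pairs that would pass was not computed, in IP or in input, so these counts are not shown to be particular to the 5. The 5 were also chosen for low values in these same IP libraries, and the part of that choice in the correlations was not tested. In deviations from the 4 group means over 22 libraries, Mir124a-1hg came at place 145 and Snhg11 at place 198 among the genes most like Malat1. Snhg11 came at place 1 for Meg3.

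In input 4 of 10 pairs passed (r of 0.824 to 0.937 for these, adjusted p of 0.00778 to 0.0421, exact permutation), all among Mir124a-1hg, Meg3, Miat and Snhg11, and 2 of 10 passed by rho. For Meg3 and Snhg11 r was 0.909 with all animals and 0.656 without Pre_510 and Pre_501, and for Miat and Snhg11 it was 0.937 and then 0.685 without Pre_510 and Pre_511. Malat1 and Mir124a-1hg had r of 0.189. Whether the correlations differ between IP and input was not tested.

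Marker scores were set against the same deviations. The noradrenergic score in IP had r of -0.497 to -0.244 with the 5 RNAs and 0 of 5 passed (adjusted p of 0.181 to 0.483, exact permutation, with 0 of 5 unadjusted p under 0.05). The glial score had r of -0.463 to 0.115, again with 0 of 5 (adjusted p of 0.213 to 0.915, exact permutation, with 0 unadjusted p under 0.05). A score of 7 neuron markers (Rbfox3, Snap25, Syt1, Tubb3, Elavl4, Nefl and Stmn2), added after the values were seen, went the other way from the 5 RNAs in IP, with r of -0.820 to -0.731, rho of -0.773 to -0.727 and adjusted p of 0.0124 to 0.0177 for r (exact permutation). All 5 passed by r and 4 of 5 by rho, with an adjusted p of 0.0511 by rho for Snhg11 (exact permutation). The share of all genes that would pass against this score was not computed. Without IP_509 and IP_510, r stayed between -0.834 and -0.693. In input 2 of 5 passed, for Miat and Snhg11, and without Pre_511 and Pre_510 their r was -0.085 and 0.126, so that relation rests on those libraries. The neuron score spanned only 9.02 to 9.26 log2 CPM in IP and 8.70 to 8.96 in input. Log2 CPM is scaled within each library, so RNAs that take more of its reads leave less for others. The part of this in the correlations was not tested.

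**Figure D4:**
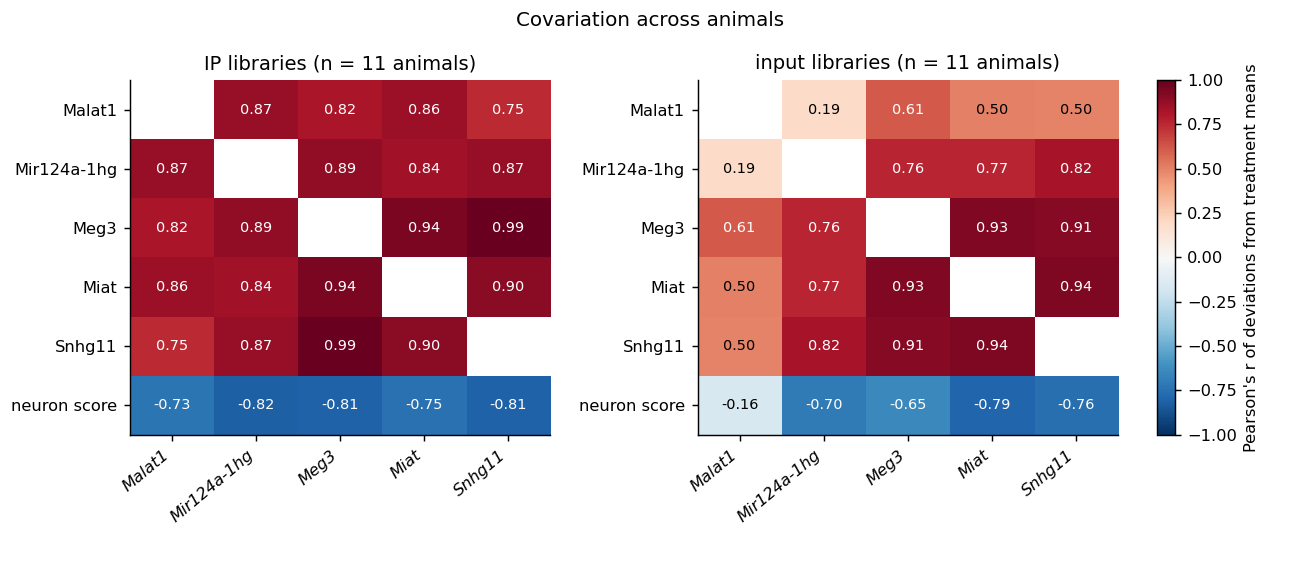
Pearson's r of deviations from treatment means (colour and printed value) between the 5 RNAs and with the neuron marker score, in the 11 IP libraries (left) and the 11 input libraries (right). In IP all pairs of RNAs lie between 0.747 and 0.986 and all values with the neuron score are negative, while in input Malat1 and Mir124a-1hg are at 0.189.

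The genes most like each RNA over the 22 libraries were found by Pearson's r of log2 values, which includes the IP and input difference and is a description with no p. Meg3 was nearest to Snhg11 (r of 0.985), Miat (0.978) and Firre (0.967), itself a nuclear RNA. Snhg11 was nearest to Meg3, Fam193b (0.971) and Miat (0.967), and Miat to Sdccag3 (0.984), Meg3 and Rrnad1 (0.970). Malat1 was nearest to Spop (0.952), Ncoa3 (0.951) and Scmh1 (0.951), and Mir124a-1hg to Tbkbp1 (0.975), Rfng (0.974) and Sema4g (0.970), all of them protein-coding genes. Snhg11 came at place 307 in the order for Malat1, with r of 0.899. After removing the 4 group means, Meg3 was again nearest to Snhg11 (0.963) and Miat (0.936), followed by Fam193b (0.936). Miat was nearest to Fam193b (0.937), Sdccag3 (0.937) and Meg3, and Snhg11 to Meg3, Fam193b (0.957) and Dusp11 (0.929). The nearest to Malat1 were Gm10419 (0.858), Igsf9b (0.833) and Upp2 (0.827), and to Mir124a-1hg they were Rfng (0.904), Tbkbp1 (0.894) and Inha (0.892). The libraries share depth and animals, so these values do not speak of shared function or control.

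Related RNAs were tested for IP against input, beside all genes, whose median difference was -0.03 in EYFP and -0.04 in hTyr and of which 28.5% passed as higher in EYFP and 27.4% in hTyr. Of 19 other nuclear-retained long noncoding RNAs 12 were in the table. In EYFP 7 fell and 0 rose in IP, with a median of -0.48, and in hTyr 8 fell and 0 rose, with a median of -0.57 (limma). Firre, an X-linked RNA that organises chromatin, fell, at -0.86 ± 0.18 in EYFP and -1.36 ± 0.26 in hTyr (IP minus input, log2 ± SE, adjusted p of 0.000910 and 0.000369, limma). Neat1, the scaffold of paraspeckles, fell too, at -0.76 ± 0.17 and -1.13 ± 0.14, as did Rian, a snoRNA host beside Meg3, at -0.77 ± 0.12 and -0.94 ± 0.13. Peg13, an imprinted RNA of the brain, fell, at -0.66 ± 0.09 and -0.68 ± 0.09. Since the 5 RNAs were chosen for their low IP minus input in these animals, the size of their falls beside those of other genes follows from the choice and is not a result. IP and input libraries with the same number are taken as 1 animal, which these counts leave out. With the animal as a block, 9 of the 12 fell in EYFP and 9 in hTyr. The block also raised the calls over all genes in either direction, from 7123 to 8133 in EYFP and from 6853 to 7440 in hTyr. The shares of all genes given above are without the block, also where it is used for the lists below. The 94 genes annotated as lincRNA had a median of -0.48 in EYFP and -0.58 in hTyr, against -0.01 and -0.02 for 11721 protein-coding genes.

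Other hosts of small RNAs are described next. Of 15 snoRNA hosts in the table (19 listed), 2 fell in EYFP with a list median of -0.19 and 6 in hTyr with a median of -0.32, and 0 rose. With the animal as a block, 5 fell in EYFP and 8 in hTyr, and 0 rose. The lowest were Snhg17, at -0.83 ± 0.18 in EYFP and -0.99 ± 0.24 in hTyr, and Snhg18, at -0.74 ± 0.19 and -0.88 ± 0.23. Without the block, the count in EYFP was 4 without the animal of IP_505 and with median centring, and 0 when only the upper 75% of genes by mean level were kept, and the count in hTyr was 1 under that filter, which leaves 5 hosts. Of 15 microRNA hosts 4 were in the table. All 4 fell in EYFP, with a median of -0.49, and 3 in hTyr, with a median of -0.47. The count in EYFP was 3 without the animal of IP_504 or IP_512. The count in hTyr was 4 with the animal as a block and with median centring. It was 2 with no mean-variance trend, with quantile normalization or without the animal of IP_508, and 1 without that of IP_501, IP_502 or IP_509. Mir124-2hg, a further host of miR-124, stood at -0.45 ± 0.14 in EYFP (adjusted p of 0.0114 with all animals, 0.0576 without that of IP_504 and 0.0561 without that of IP_512, limma) and fell, at -0.58 ± 0.11, in hTyr.

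Some RNAs on a list taken to be mainly cytoplasmic fell as well, though where they lie in the cell was not measured here. Of 5 in the table (8 listed), 2 fell in EYFP, with a median of -0.25, and in hTyr 3 fell and 1 rose, with a median of -0.56. The count in EYFP was 1 without the animal of IP_504, IP_506 or IP_512, and the lower count in hTyr was 2 without that of IP_501, IP_508, IP_509 or IP_510. The RNA 2900097C17Rik fell, at -0.58 ± 0.12 in EYFP and -0.65 ± 0.12 in hTyr. Tug1 rose by 0.37 ± 0.12 in hTyr (adjusted p of 0.0138, and 0.0886 without the animal of IP_501, limma) and had 0.08 ± 0.08 in EYFP. mRNAs known for detained introns, which keep part of their transcripts in the nucleus, were split. Of 12, 4 rose and 1 fell in EYFP, with a median of 0.04, and 3 rose and 2 fell in hTyr, with a median of 0.01. In EYFP 2 fell with the animal as a block and with median centring, and 0 with no mean-variance trend or without the animal of IP_504, IP_506, IP_507 or IP_512. In hTyr 1 rose with no mean-variance trend, with quantile normalization and without the animal of IP_508 or IP_510, and 2 without that of IP_501. Luc7l3, a splicing factor, rose by 0.62 ± 0.16 in EYFP and 0.65 ± 0.17 in hTyr.

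The mRNAs of proteins found in the same nuclear bodies went in both directions. Of 19 speckle and paraspeckle proteins, 7 rose and 7 fell in EYFP (median 0.05), and 7 rose and 4 fell in hTyr (median 0.10). With the animal as a block, 8 rose and 7 fell in EYFP and 8 rose and 6 fell in hTyr. Pspc1, a paraspeckle protein, rose by 1.18 ± 0.12 in EYFP and 1.10 ± 0.13 in hTyr, Son, a speckle scaffold, by 0.82 ± 0.09 and 0.90 ± 0.11, and Hnrnpk by 0.71 ± 0.10 and 0.79 ± 0.12. Srsf2, a splicing factor of speckles, fell, at -0.40 ± 0.07 and -0.40 ± 0.08.

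Of 8 listed genes in or beside the imprinted Dlk1-Dio3 cluster of Meg3, 7 were in the table, and the imprinting of each was not examined. In EYFP 4 fell and 1 rose, with a median of -0.40. In hTyr 5 fell and 1 rose, with a median of -0.50 (3 fell without the animal of IP_510). Besides Rian, which is on 2 of the lists, Ppp2r5c fell, at -0.49 ± 0.08 in EYFP and -0.56 ± 0.12 in hTyr, and so did Begain, at -0.40 ± 0.10 and -0.50 ± 0.09. Dlk1, the paternally expressed gene of the cluster, rose by 0.75 ± 0.16 in hTyr (adjusted p of 0.00111, limma). In EYFP it rose by 0.30 ± 0.12 (adjusted p of 0.0436), a call that was lost with no mean-variance trend (0.0612), with quantile normalization (0.0729), with median centring (0.0821) and without the animal of IP_504, IP_505, IP_506 or IP_512 (0.0578 to 0.130). Of 14 genes that process miR-124 or are its known targets (15 listed), 6 fell and 3 rose in EYFP, with a median of -0.14, and 6 fell and 2 rose in hTyr, with a median of -0.16. Ctdsp1, a known miR-124 target, fell, at -0.87 ± 0.11 in EYFP and -1.05 ± 0.10 in hTyr, as did Ago2, the protein that carries microRNAs, at -0.98 ± 0.17 and -0.91 ± 0.18. Itgb1, also a known target, rose by 0.76 ± 0.13 and 1.14 ± 0.10, and Ptbp2, a splicing regulator of neurons, by 0.69 ± 0.07 and 0.83 ± 0.11.

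Between hTyr and EYFP, 0 of the 86 genes on these lists passed in IP or in input with limma or with voom, while 9 in IP and 3 in input had an unadjusted p under 0.05 with limma (8 and 3 with voom), as did 6.19% of all genes in IP and 3.03% in input in either direction. The medians of hTyr minus EYFP in IP were -0.24 for the other nuclear-retained RNAs, of which 10 of 12 were below 0, -0.07 for the snoRNA hosts and -0.02 for the microRNA hosts, against -0.56 for the 5 RNAs and -0.005 for all genes. Of all 12596 genes 6524 were below 0. So were 12 of 15 snoRNA hosts, 2 of 4 microRNA hosts, 9 of 12 detained-intron mRNAs and 13 of 19 speckle and paraspeckle proteins. Firre had -0.74 ± 0.26 (unadjusted p of 0.0102, adjusted p of 0.742, limma) and Neat1 -0.33 ± 0.18 (adjusted p of 0.827).

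**Figure D5:**
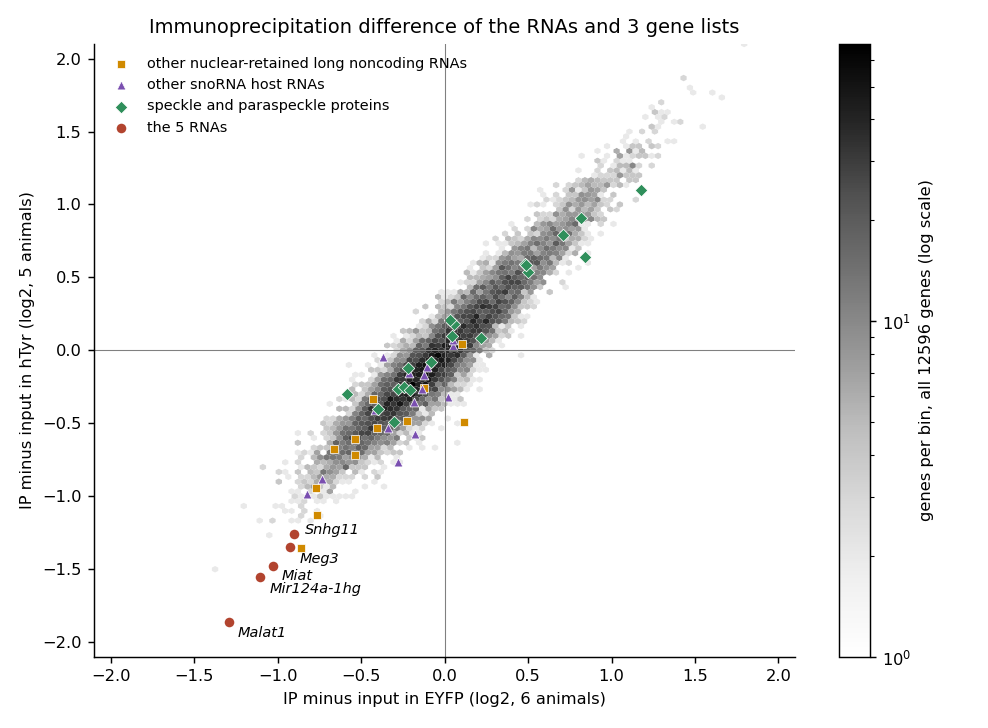
IP minus input on the log2 scale in EYFP (horizontal axis, 6 animals) against hTyr (vertical axis, 5 animals) for the 5 RNAs (red circles), 3 gene lists (coloured symbols) and all genes (grey bins, darker for more genes), with genes beyond the axes not drawn. The 5 RNAs lie at the lower left end, from -1.86 for Malat1 in hTyr, the other nuclear-retained RNAs reach from there to 0, and the speckle and paraspeckle proteins lie on both sides of 0.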

How the data were processed

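RNA sequencing libraries were made by a service company, per the labels' protocols. STAR, featureCounts and the mm10 build are named in the submitters' processing notes, without version or role. The authors deposited 1 table of log2 values for 12596 genes in 22 libraries. Its filter, normalization, strand setting and annotation are not given in the sources used here. The deposited log2 values behave as CPM with a pseudocount averaging 2 reads. Whole reads came back for 100% of values (within 0.05 reads), with 12654489 to 25100142 reads per library. Reads carry no molecular identifiers, so depth speaks of counting error only.

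Genes were tested with limma 3.58.1 in R 4.3.3 (lmFit, eBayes with a trend) across all 12596 genes, with Benjamini-Hochberg adjustment and a threshold of 0.05. The comparisons were hTyr against EYFP in IP and in input, IP against input in each treatment, and the difference between those. The number in the sample titles is taken as the animal and pairs IP and input. No label says outright that numbers are animals, so p-values measure the spread between these samples. Deviations of paired libraries had a mean r of 0.448 (0.279 to 0.626) over 11 animals, against -0.0428 for other pairs. Nothing says whether animals were processed in batches. The members and gene lists were chosen with earlier results of these data known. Named were the 5 RNAs, their 3 nearest genes by each measure, and, for each list, up to 4 genes with the highest and up to 4 with the lowest IP minus input, of which those called in at least 1 treatment are described. Scripts were tested on simulated data. GENCODE M21 gave a match for 12087 of 12596 symbols (95.96%). Alternatives were no variance trend, quantile normalization, median centring, only the upper 75% of genes by mean level, 5 CPM as pseudocount, voom on the recovered reads, marker scores or total reads as covariates, the replicate block and leaving out each animal. The neuron score was added after the data were seen. Figures were drawn with matplotlib 3.10.9 in Python 3.11.15.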

Additional observations from a re-analysis of the deposited data

Results flagged for a closer look

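Within each group of libraries, and for IP minus input within each treatment, the highest and lowest animal of each of the 5 RNAs was compared with the gap to its nearest neighbour (Dixon's ratio at the 95% level). Chance flags about 1 in 20 groups, which is 1.5 of the 30 groups tested here, and 3 were flagged. In hTyr input, the library Pre_510 had a Mir124a-1hg level of 6.25 log2 CPM, where the nearest library had 6.93, and the gap was 0.771 of the whole range. In the same library the Miat level was 6.51, where the nearest library had 7.21 (0.772 of the range). IP minus input of Malat1 was -2.78 in the hTyr animal of IP_509, where the nearest animal had -1.75 (0.838 of the range).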

How the results depend on the processing

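The IP minus input of the 5 RNAs kept its sign in each treatment under all alternatives run, from -1.94 to -1.64 for Malat1 in hTyr and from -1.57 to -1.05 in EYFP, both ends without 1 animal. hTyr minus EYFP in IP was below 0 for all 5 in all 20 alternatives, and 0 of 5 passed in any. In input the Malat1 difference ran from -0.17 to 0.031 on leaving out each animal, that of Mir124a-1hg from -0.11 to 0.11, that of Miat from -0.18 to 0.050 and that of Snhg11 from -0.25 to 0.026, so their direction depends on single animals. Over all genes, 7 passed for hTyr against EYFP in IP, 11 with the glial score and 0 with total reads as a covariate, and 3 to 11 without each animal. In input 1 passed, 0 with the noradrenergic score or total reads, and 0 to 2 without each animal. For the difference of the hTyr effect between IP and input 1 passed, 5 with the replicate block, and 0 to 5 without each animal. The replicate block gave 8133 genes for IP against input in EYFP and 7440 in hTyr, against 7123 and 6853. Of the 30 correlations without the neuron score 14 passed, and 9 to 15 did so without each animal, the lowest without the EYFP animal of IP_505. The causes of these shifts were not tested. Depth is not limiting for the 5 RNAs, the lowest count being 373 reads. The treatment comparisons rest on few animals, 5 with hTyr and 6 with EYFP.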
